A study of Mus musculus with 6 samples.

Results

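DNA repair genes were examined by pathway in laser-captured mesenchyme of the mouse incisor, a tooth that grows throughout life. The 32 genes were chosen by symbol and assigned to 5 pathways, with 17 in homologous recombination and the Fanconi pathway, 6 in checkpoint and damage signaling, 2 in mismatch repair, 4 in base excision repair and 3 in nucleotide excision repair. All 32 were among the 23718 genes listed in the deposited table. RNA sequencing covered 3 samples of the mesenchymal stem cell (MSC) region and 3 of the transit amplifying cell (TAC) region, all from mice 1 month old, with n = 3 mice per group. The labels give the strain as C57BL/6, whereas the methods of the study speak of a mixed background. The MSC samples came from Gli1-CreER;tdT mice and the TAC samples from Axin2-CreER;tdT mice. In both genotypes tamoxifen, given 1 day before collection, lets a Cre recombinase that is expressed where Gli1 or Axin2 is active switch on the red reporter tdTomato, and regions of labeled cells were then cut from sections with a laser. A captured region can hold unlabeled neighbors, so a sample can be a mixture, and the share of labeled cells in it was not measured.

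Cells repair DNA by several routes that differ in when they can work. Homologous recombination copies the intact sister chromatid to mend a double-strand break, and the Fanconi proteins unhook crosslinks between the strands and pass the break to recombination. Both routes act mainly while DNA is being copied and soon after, and many of their genes are transcribed at the entry to S phase under the E2F factors. Base excision repair swaps single damaged bases, nucleotide excision repair cuts out bulky lesions, and mismatch repair corrects copying errors, whereas the checkpoint kinases sense damage and hold the cell cycle.

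The deposited values are read numbers scaled library by library, with no division by gene length, so different genes are not comparable. The third quartile over the listed genes was 15.59 to 15.62 in the 6 libraries. A gene is compared across libraries on that scale. Replicates 1 and 2 of each group held 20203159 to 25567244 estimated reads, MSC replicate 3 held 59793645 and TAC replicate 3 held 108156380. Replicate 3 stood apart in both groups. Genes tested that had no read made up 0.533% to 0.669% in replicates 1 and 2, 21.2% in MSC replicate 3 and 9.39% in TAC replicate 3, and the share of mitochondrial ribosomal RNA was 8.28% to 9.07% against 0.112% to 0.236%. Results are therefore also given within replicates 1 and 2 and within replicate 3, where 1 library per group leaves nothing to test. Among the genes that define the groups, Gli1 differed by -0.54 and Axin2 by 0.60 as log2 fold change, TAC minus MSC (SE 0.48 and 0.60, limma adjusted p 0.718 and 0.758).

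No repair gene passed the adjusted threshold in the fit by group over all 6 libraries. The genes past the unadjusted one were recombination and base excision genes with higher values in TAC. With the kind of library (replicate 3 or not) as a batch term, 10 of the 32 passed the adjusted threshold as higher in TAC, beside 5.22% of all genes tested. In replicates 1 and 2 alone 21 did, beside 20.0%, and 2 passed as higher in MSC, beside 24.2%. Checkpoint and nucleotide excision genes had no common direction over the 6 libraries. Of the 32 genes, 28 had a positive log2 fold change, against 51.5% of the 15391 genes tested. Their median log2 fold change was 0.99, and it was 0.026 over all genes tested. These medians were 0.59 and -0.13 without MSC replicate 3. By pathway the median was 1.63 for homologous recombination and Fanconi, 1.25 for base excision repair, 0.43 for mismatch repair, 0.033 for nucleotide excision repair and -0.17 for checkpoint and damage signaling. Without MSC replicate 3 the first 3 were 1.00, 0.71 and 0.19, and without TAC replicate 3 mismatch repair was 0.70, nucleotide excision repair -0.22 and checkpoint signaling 0.23. The test was a linear model of log2(value + 1) fitted with limma to all genes tested. At an adjusted p-value under 0.05, 0 of the 32 passed in either direction, where 0.0390% of all genes tested passed as higher in TAC and 0.383% as higher in MSC. At the unadjusted threshold of 0.05, 9 genes passed as higher in TAC (5.42% of all genes tested) and 0 as higher in MSC (6.43%). The 9 were Exo1, Brca1, Rad51ap1, Bard1, Fancd2, Rad54b and Brip1 in recombination, and Apex1 and Parp1 in base excision repair. In 12 of the 32 genes all TAC values lay above all MSC values, as in 12.3% of the genes tested, and in 0 genes did all MSC values lie above, as in 12.2%. A region with fewer cells that express a gene and a region with less RNA per cell cannot be told apart in such samples.

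**Figure D1:**
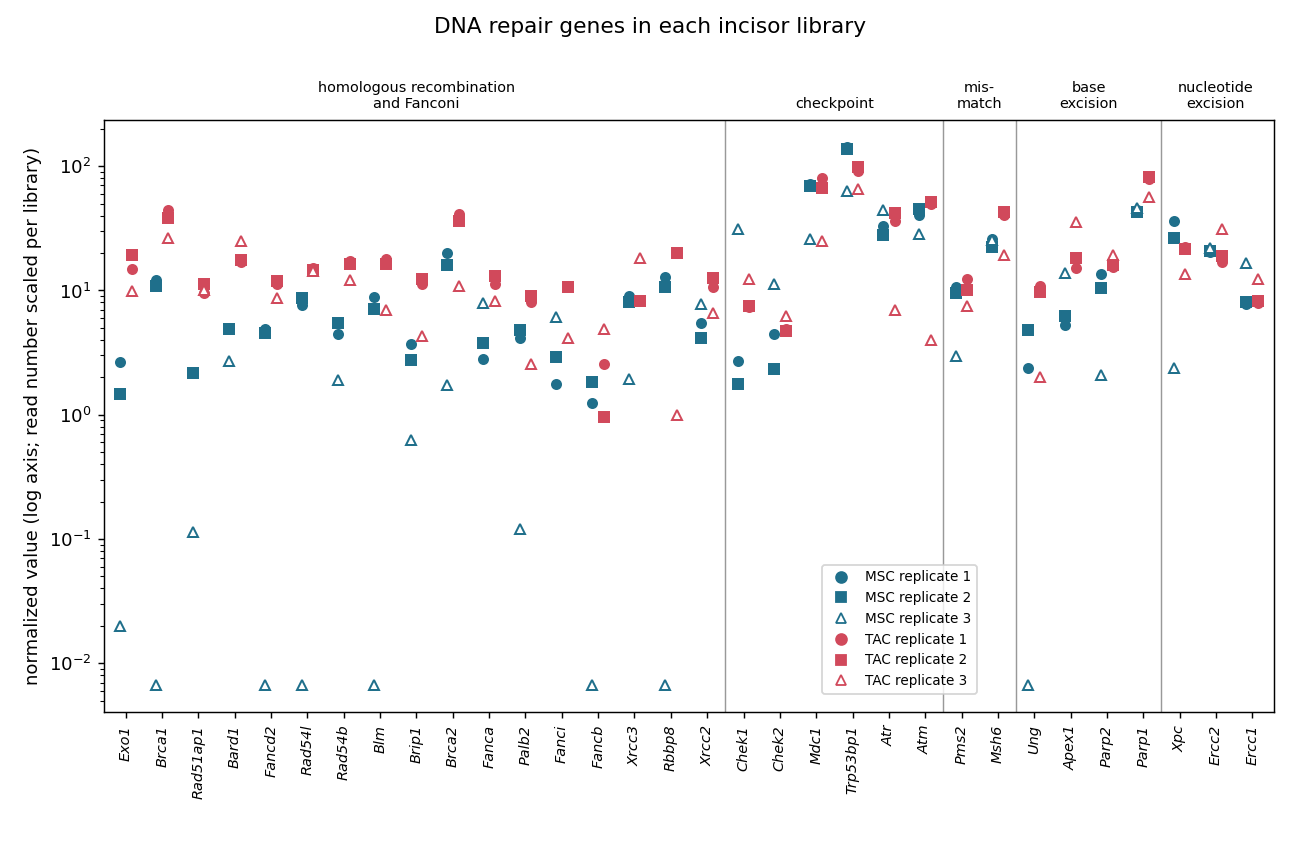
Normalized value (log axis) of each of the 32 DNA repair genes in every library, ordered by pathway and, within a pathway, by log2 fold change. Blue marks are MSC and red marks TAC, with filled circles and squares for replicates 1 and 2 and open triangles for replicate 3, and the lowest blue triangles at 0.00666 are genes without a read in MSC replicate 3.

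Homologous recombination and Fanconi genes had the highest median of the 5 pathways. All 17 had a positive log2 fold change, from 0.67 for Xrcc2 to 2.86 for Exo1 (51.5% of all genes tested were positive). Of the 17, 7 passed the unadjusted threshold, beside 5.42% of all genes tested, and in 9 all TAC values lay above all MSC values, beside 12.3%. Within replicates 1 and 2 their median was 1.13 and within replicate 3 it was 2.55, which is the value of Fancb, 1 of the 6 genes of the 17 that had 0 estimated reads in MSC replicate 3. The direction was positive in both kinds of library for 14 of the 17, against 30.1% of all genes tested, and negative in both for 0, against 31.2%.

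Exo1 encodes an exonuclease that trims a broken end into the single strand needed for recombination and also digests the faulty strand in mismatch repair. Exo1 (chromosome 1, 175880581 to 175913489, plus strand) had values of 2.66, 1.48 and 0.0200 in the MSC libraries (replicates 1, 2 and 3, the order used throughout) against 14.8, 19.3 and 9.98 for TAC. Every TAC library lay far above every MSC library. The means were 1.39 ± 1.32 in MSC and 14.7 ± 4.64 in TAC (SD, n = 3 each), a ratio of 10.6. The log2 fold change was 2.86 (SE 0.63, limma unadjusted p 0.00242, adjusted p 0.140). It came to 2.57 within replicates 1 and 2 alone and to 3.43 within replicate 3.

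Brca1 and Bard1 encode the partners of a ubiquitin ligase that steers breaks to recombination. Brca1 (chromosome 11, 101488764 to 101551955, minus strand) had values of 12.2 and 10.9 in the first MSC libraries and 0 estimated reads in MSC replicate 3, which allows a value of up to 0.0200. It was 44.2, 38.5 and 26.2 in TAC. The groups did not overlap, and the ratio of the group means was 4.70. Its log2 fold change of 2.75 (SE 0.97, limma unadjusted p 0.0238, adjusted p 0.327) was larger than that ratio because the library without a read weighs more on the log scale, and without MSC replicate 3 it was 1.54. Bard1 (chromosome 1, 71027498 to 71103146, minus strand) had values of 4.98, 4.87 and 2.72 in MSC and 16.9, 17.5 and 24.9 in TAC. Replicate 3 was the lowest value in MSC and the highest in TAC. Its fitted log2 difference was 2.01 (SE 0.42, limma unadjusted p 0.00178, adjusted p 0.125), the lowest p-value of the 32 genes.

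Genes that act in the later, strand pairing steps of recombination followed. Rad51ap1 (chromosome 6, 126923050 to 126939587, minus strand), which promotes pairing of the broken strand with its template, had 2.19, 2.17 and 0.113 in MSC and 9.61, 11.3 and 10.1 in TAC. Rad54b (chromosome 4, 11558922 to 11615805, plus strand), a DNA translocase, was 4.50, 5.49 and 1.89 in MSC and 17.2, 16.4 and 12.1 in TAC. Both genes separated the groups. Their log2 fold changes were 2.34 (SE 0.59) and 1.78 (SE 0.48), with limma adjusted p-values of 0.179 and 0.195. The related translocase Rad54l (chromosome 4, 116094264 to 116123690, minus strand) had values of 7.65, 8.71 and 0.00666 in MSC and 15.1, 14.6 and 14.4 in TAC, so the groups did not overlap either. Its log2 fold change of 1.84 (SE 0.88) missed the unadjusted threshold (limma p 0.0737). Without MSC replicate 3 the log2 fold change was 0.78 and passed that threshold (limma unadjusted p 0.0189, adjusted p 0.161). The MSC value of Rad54l at 0.00666 stands for 0 estimated reads. Xrcc2 and Xrcc3, which also act in recombination, behaved less evenly. Xrcc2 was 5.46, 4.14 and 7.84 in MSC and 10.6, 12.6 and 6.54 in TAC, and Xrcc3 was 9.09, 8.03 and 1.94 in MSC and 8.30, 8.22 and 18.3 in TAC. Xrcc2 was higher in TAC within replicates 1 and 2 alone and Xrcc3 within replicate 3 alone. Their limma adjusted p-values over all libraries were 0.639 and 0.654.

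Brca2 is a mediator of recombination and Palb2 ties it to Brca1. Brca2 (chromosome 5, 150522630 to 150570329, plus strand) had values of 19.9, 15.9 and 1.74 in MSC and 40.9, 36.1 and 10.96 in TAC, where the fitted log2 difference was 1.42 (SE 0.86, limma adjusted p 0.584). TAC replicate 3 lay below MSC replicates 1 and 2, so the groups overlapped. In Palb2 TAC replicate 3 also lay below MSC replicates 1 and 2. Its values were 4.16, 4.84 and 0.120 in MSC and 8.08, 9.02 and 2.54 in TAC, and its fitted log2 difference was 1.09 (SE 0.81, limma adjusted p 0.669). The helicase Blm, which takes apart joined recombination intermediates, was 8.85, 7.04 and 0.00666 in MSC and 17.9, 16.3 and 6.93 in TAC (log2 fold change 1.68, SE 0.93, limma adjusted p 0.541). Rbbp8, which starts the trimming of broken ends, lies on chromosome 18 and was 12.9, 10.8 and 0.00666 in MSC and 19.97, 20.1 and 0.989 in TAC. For each of these 4 genes the TAC value was above the MSC value of the same replicate number, and both replicate 3 values were the lowest of their group. The log2 fold change of Rbbp8, 0.81 (SE 1.30), became -0.42 without MSC replicate 3. Without that library the value was 0.49 for Brca2, 0.32 for Palb2 and 0.63 for Blm.

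In the Fanconi pathway, Fancd2 and Fanci form the clamp that is locked onto DNA at a crosslink. Fancd2 (chromosome 6, 113531682 to 113597017, plus strand) had values of 4.93, 4.58 and 0.00666 in MSC and 11.3, 11.9 and 8.66 in TAC, which did not overlap. Its log2 fold change was 1.84 (SE 0.76, limma unadjusted p 0.0456, adjusted p 0.406), and without MSC replicate 3 it was 1.00. Its partner Fanci was 1.78, 2.90 and 6.06 in MSC and 10.9, 10.7 and 4.17 in TAC. The log2 difference of Fanci was thus 1.84 within replicates 1 and 2 but -0.45 within replicate 3, while that of Fancd2 was 1.13 and 3.26. Brip1 (chromosome 11, 86058138 to 86201193, minus strand), a helicase that binds Brca1, was 3.73, 2.78 and 0.626 in MSC and 11.3, 12.3 and 4.28 in TAC, again without overlap. The log2 difference was 1.63 (SE 0.65, limma unadjusted p 0.0391, adjusted p 0.385) and was nearly equal in the 2 kinds of library, at 1.59 and 1.70. Fanca and Fancb belong to the core complex that marks the clamp. Fanca was 2.80, 3.77 and 7.92 in MSC and 11.3, 13.2 and 8.26 in TAC, separated by a narrow margin in replicate 3, and Fancb was low throughout, at 1.25, 1.83 and 0.00666 in MSC and 2.56, 0.959 and 4.90 in TAC. Their limma adjusted p-values were 0.447 and 0.668.

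**Figure D2:**
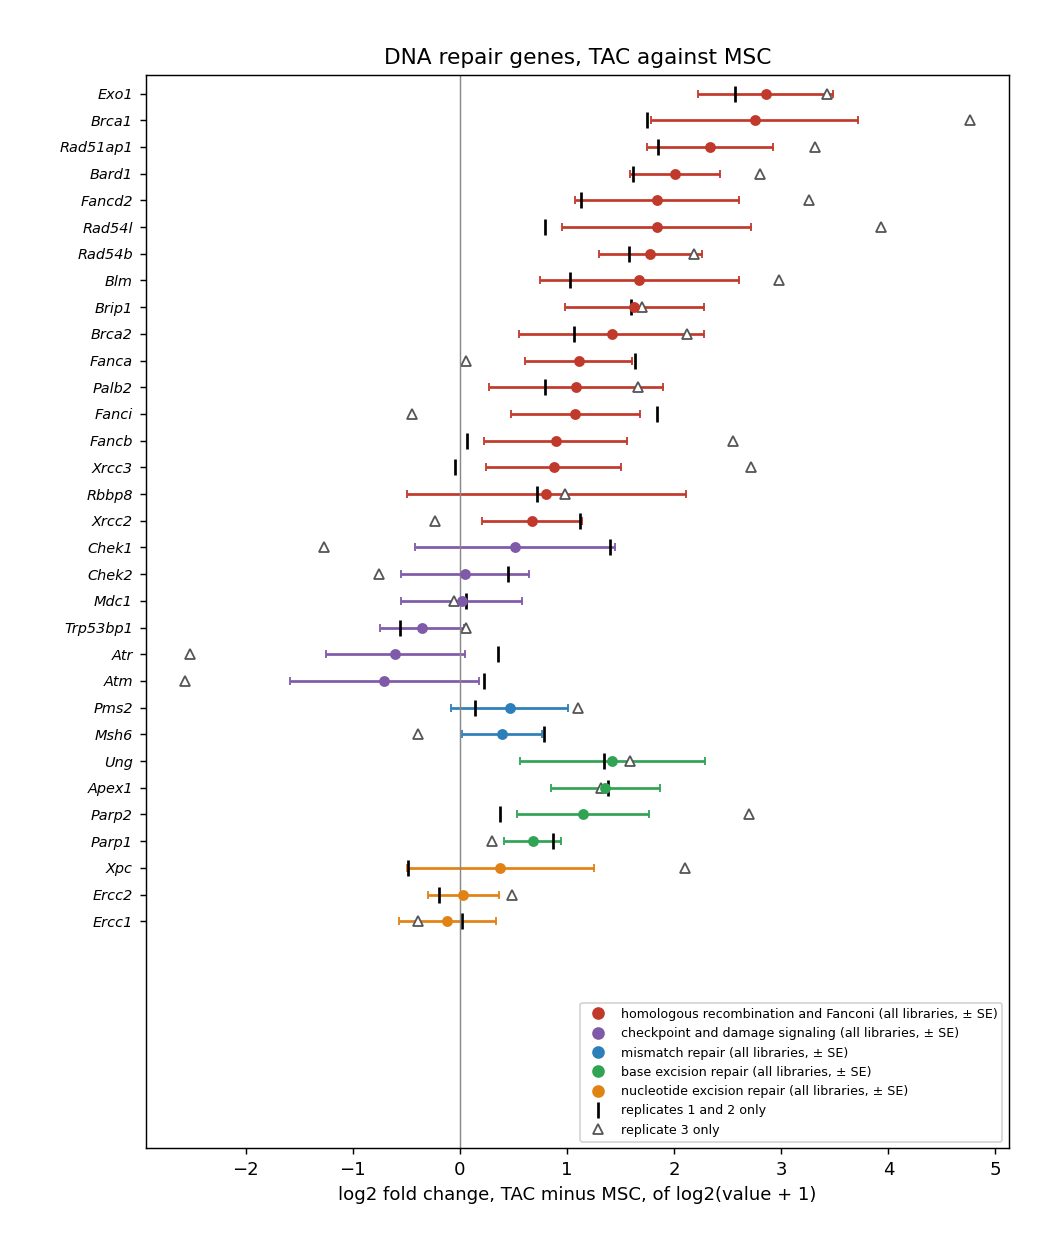
Log2 fold change of each DNA repair gene, TAC minus MSC, on the log2(value + 1) scale. Colored circles with bars are the fit over all 6 libraries ± SE, black ticks are replicates 1 and 2 only and open triangles replicate 3 only, and all 17 red circles of homologous recombination and Fanconi genes lie above 0 while the 6 purple checkpoint genes lie between -0.71 and 0.51.

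E2F factors bind a short core in the promoters of many S phase genes, so the promoters were searched for it. The core was taken as TTCCCGC or TTGGCGC or the variants TTCGCGC and TTGCCGC on either strand, in windows from 250 bases before to 50 after the start (RefSeq, GRCm38.p6). A promoter was at hand for 26 of the 32 genes, and 17 of these (65.4%) held a core, against 19.2% of the 10387 tested genes with a promoter and 10.9% of all 27025 genes. The core was in 8 of 12 recombination and Fanconi promoters (66.7%) and in 9 of 14 promoters of the other members of the 32 (64.3%), including 4 of 6 checkpoint genes and 1 of 4 base excision genes. Among 82 promoters of further repair genes it was in 31 (37.8%), and in a list of S phase genes in 70.6%. The CCAAT box, whose letters can be shared with TTGGCGC, was searched on either strand and was in 16 of the 26 (61.5%) and in 42.8% of the tested genes. The CHR element TTTGAA, found in 72.2% of the promoters of a list of G2/M genes, was in 1 of the 26 repair promoters (3.85%) and in 14.2% of the tested genes. These are matches of letters, and no binding was measured here. The stretches below, with the core in capitals, show 4 recombination genes that passed the unadjusted threshold and then Atm and Mdc1, damage signaling genes that carry the same letters and did not pass it.
Brca1 (chr11:101551926-101551976, minus strand): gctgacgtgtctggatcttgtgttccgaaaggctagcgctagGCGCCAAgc
Rad51ap1 (chr6:126939558-126939608, minus strand): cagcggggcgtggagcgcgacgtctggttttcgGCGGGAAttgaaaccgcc
Bard1 (chr1:71103152-71103202, minus strand): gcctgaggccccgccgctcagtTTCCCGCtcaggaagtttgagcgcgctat
Brip1 (chr11:86201169-86201219, minus strand): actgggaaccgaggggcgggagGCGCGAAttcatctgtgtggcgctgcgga
Atm (chr9:53536642-53536692, minus strand): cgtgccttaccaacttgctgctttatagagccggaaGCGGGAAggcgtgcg
Mdc1 (chr17:35841461-35841511, plus strand): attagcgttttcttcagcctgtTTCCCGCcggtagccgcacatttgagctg
Rad51ap1 and Atm carry the same core, GCGGGAA, which is TTCCCGC read on the other strand, and it starts 13 and 16 bases after their transcription starts.

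Base excision repair followed recombination. All 4 genes had a positive log2 fold change in both kinds of library, beside 30.1% of all genes tested, and 2 passed the unadjusted threshold, beside 5.42%. Apex1 (chromosome 14, 50924968 to 50927139, plus strand), the endonuclease that cuts at a site left without a base, was 5.24, 6.26 and 13.8 in MSC and 15.0, 18.2 and 35.9 in TAC. Replicate 3 was the highest of its group in both, and the groups did not overlap. Its log2 fold change was 1.36 (SE 0.51, limma unadjusted p 0.0301, adjusted p 0.350). Both kinds of library gave nearly that value, 1.38 and 1.32. Parp1 (chromosome 1, 180568924 to 180601254, plus strand), which senses strand breaks, was 44.5, 42.5 and 45.7 in MSC and 78.2, 82.4 and 56.5 in TAC. The MSC values were nearly equal, at 44.3 ± 1.63 (SD, n = 3), with TAC at 72.4 ± 13.9 (SD, n = 3), and the log2 fold change was 0.68 (SE 0.26, limma unadjusted p 0.0356, adjusted p 0.373). Its paralog Parp2 was 13.5, 10.4 and 2.10 in MSC and 15.3, 15.97 and 19.1 in TAC, without overlap but with an SE of 0.62 on a log2 fold change of 1.15 (limma adjusted p 0.532). Ung, which removes uracil from DNA, was 2.40, 4.81 and 0.00666 in MSC and 10.9, 9.71 and 2.03 in TAC, which gave 1.42 on the log2 scale (SE 0.86, limma adjusted p 0.581). Its 2 groups overlapped because TAC replicate 3 was low. Without MSC replicate 3 the value was 0.47 for Parp2 and 0.71 for Ung.

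Checkpoint and damage signaling genes had no common direction over the 6 libraries, where 3 of the 6 genes had a positive and 3 a negative log2 fold change. Within replicates 1 and 2, 5 of the 6 were positive (median 0.29), and within replicate 3 only 1 was (median -1.01). Over all libraries 0 passed the unadjusted threshold, beside 5.42% and 6.43% of all genes tested, and in 0 did the groups separate, beside 12.3% and 12.2%, so at these shares 0 of 6 genes does not set the pathway apart. In each of the 6 the sign in replicates 1 and 2 was the opposite of that in replicate 3, as it was for 38.8% of all genes tested. Atm and Atr encode the kinases that respond to double-strand breaks and to stalled replication. Atm (chromosome 9, 53439149 to 53536740, minus strand) had values of 40.8, 45.5 and 28.4 in MSC and 49.6, 51.6 and 3.96 in TAC. Atr (chromosome 9, 95857597 to 95951781, plus strand) had values of 32.8, 27.9 and 44.5 in MSC and 36.3, 41.9 and 6.94 in TAC. In both kinases 1 library, TAC replicate 3, was far below the other 5. The log2 difference of Atm was 0.23 within replicates 1 and 2 but -2.57 within replicate 3, that of Atr 0.36 but -2.52. With 1 replicate 3 library per group, no p-value is given for the difference between the kinds of library.

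Chek1 encodes the effector kinase below Atr. The gene (chromosome 9, 36708482 to 36727065, minus strand) had values of 2.69, 1.77 and 31.3 in MSC and 7.42, 7.505 and 12.4 in TAC. MSC replicate 3 was the highest of the 6 libraries. Without that library the log2 fold change was 1.62 (limma adjusted p 0.101, in a range of 0.00176 to 1.00 over the alternatives), and over all libraries it was 0.51 (SE 0.93, limma adjusted p 0.894). Chek2, the effector below Atm, was 4.45, 2.35 and 11.3 in MSC and 4.90, 4.75 and 6.28 in TAC, with MSC replicate 3 again on top. Trp53bp1, which holds broken ends against trimming, was 143, 137 and 62.6 in MSC and 91.2, 97.97 and 65.1 in TAC. It was lower in TAC within replicates 1 and 2, by -0.56, and differed by 0.057 within replicate 3. Mdc1, the scaffold that spreads the damage mark along chromatin, was 72.1, 68.8 and 25.9 in MSC and 80.3, 66.5 and 24.9 in TAC. Its values tracked the kind of library and not the group, with a log2 fold change of 0.016 (SE 0.57, limma adjusted p 0.995).

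**Figure D3:**
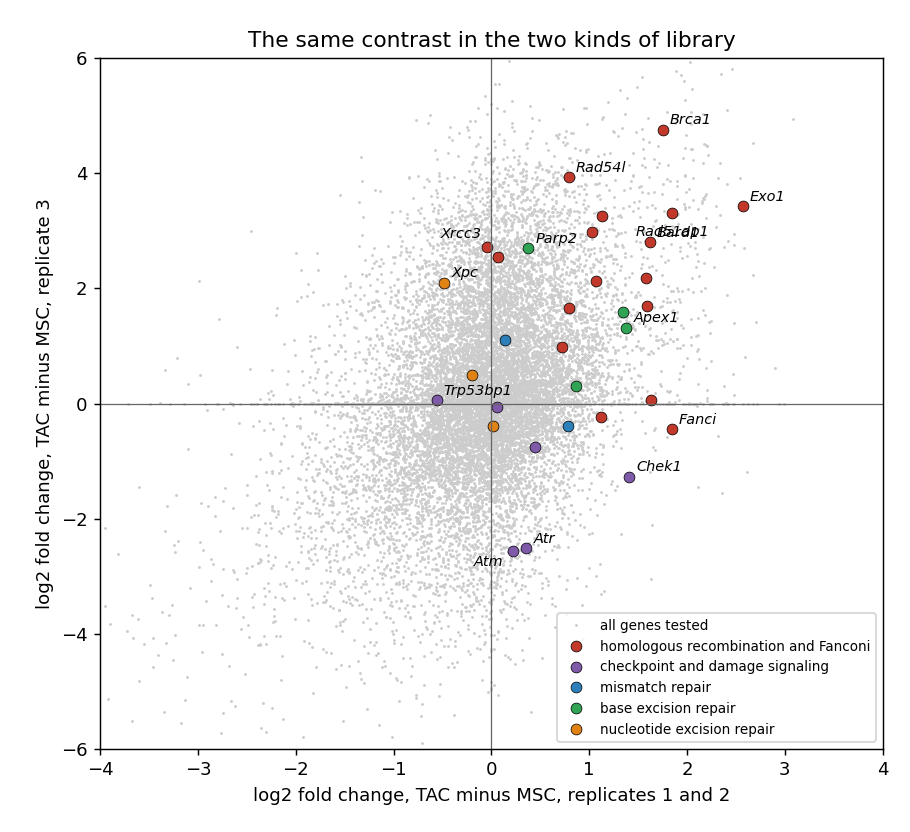
Log2 fold change, TAC minus MSC, within replicate 3 (vertical) against that within replicates 1 and 2 (horizontal), both on the log2(value + 1) scale. Colored points are the 32 DNA repair genes and gray points all 15391 genes tested, with 18 of these outside the axes. In the upper right lie 14 of the 17 red recombination genes and all 4 green base excision genes, while Chek1, Atr and Atm lie in the lower right.

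Mismatch repair was represented by a pair of genes. Msh6 (chromosome 17, 87975050 to 87990883, plus strand), part of the complex that finds the mispaired base, was 25.8, 22.2 and 25.3 in MSC and 40.8, 43.2 and 19.1 in TAC. TAC replicates 1 and 2 were above all MSC libraries and TAC replicate 3 was below them, giving a log2 fold change of 0.39 (SE 0.37, limma adjusted p 0.741), with 0.76 without TAC replicate 3, 0.23 without TAC replicate 1 and 0.19 without TAC replicate 2. Pms2, part of the endonuclease that acts next, was 10.6, 9.63 and 2.96 in MSC and 12.5, 10.2 and 7.503 in TAC (0.46, SE 0.55, limma adjusted p 0.808). The nucleotide excision genes had no common direction. Xpc, which recognizes lesions, was 35.9, 26.7 and 2.40 in MSC and 22.2, 21.6 and 13.5 in TAC. The sign turned from -0.48 within replicates 1 and 2 to 2.10 within replicate 3. Ercc1, part of the nuclease that cuts on one side of the lesion, was 7.82, 8.06 and 16.6 in MSC and 7.89, 8.22 and 12.4 in TAC. Ercc2, the helicase that opens the DNA around it, was 20.5, 20.9 and 21.9 in MSC and 16.98, 18.9 and 31.3 in TAC. In replicates 1 and 2 these last genes were nearly level, with log2 fold changes of 0.018 and -0.20, and over all libraries they were -0.12 (SE 0.45) and 0.033 (SE 0.33).

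Levels were also compared per length, as the mean over the 6 libraries divided by the summed length of all annotated exons, which is an upper limit for a transcript. This pools MSC and TAC, so the order of genes can differ within a group. The 17 recombination and Fanconi genes had pooled levels of 0.643 (Fancb) to 3.27 (Xrcc3) per kilobase, with Exo1 at 0.953 and Rad51ap1 at 1.23. The other pathways reached higher levels, such as 11.02 for Parp1, 7.60 for Mdc1, 7.02 for Trp53bp1 and 6.77 for Msh6, but the same pathways also held genes in the recombination range, such as Ung at 0.909, Pms2 at 1.09, Atr at 1.34 and Chek2 at 1.89. In MSC replicate 3, 7 of the 32 genes had 0 estimated reads (Brca1, Rad54l, Fancb, Fancd2, Blm, Rbbp8 and Ung), beside 21.2% of all genes tested, and in TAC replicate 3 it was 0 of 32, beside 9.39%. Each of the 7 had between 46 and 484 estimated reads in MSC replicates 1 and 2.

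Other genes of the same pathways, from lists written from general knowledge, were examined in the same fit. Of 103 such genes 102 were tested. At the adjusted threshold 0 passed, 14 passed the unadjusted threshold as higher in TAC and 2 as higher in MSC, beside 5.42% and 6.43% of all genes tested, and their median log2 fold change was 0.36. Among 32 further recombination and Fanconi genes, 5 were higher in TAC and 1 higher in MSC at the unadjusted threshold, and the median was 0.64. Without MSC replicate 3, 18 of the 32 were positive and 14 negative. The largest were Ube2t, the enzyme that tags the Fancd2 and Fanci clamp, at 2.38 (SE 0.66, limma adjusted p 0.201), and Rmi1, a partner of Blm, at 1.86 (SE 0.67, limma adjusted p 0.338). The 1 gene that was higher in MSC, Mus81, encodes a nuclease that cuts recombination intermediates and stood at -1.45 (SE 0.48, limma adjusted p 0.298), and it is named after its values were seen. Of 18 further checkpoint genes 4 were higher in TAC, led by the damage-marking histone gene H2afx, at 2.26 (SE 0.46, limma adjusted p 0.114), and the replication fork gene Timeless, at 1.83 (SE 0.53, limma adjusted p 0.231). The others, also named after their values were seen, were the Atr activator Topbp1, at 1.69, and the mitotic brake Wee1, at 1.32. Of 17 further base excision genes tested 2 were higher in TAC, the glycosylase Neil3, at 2.59 (SE 0.81, limma adjusted p 0.272), and the flap nuclease Fen1, at 2.51 (SE 0.59, limma adjusted p 0.159). Of 20 further nucleotide excision genes 2 were higher in TAC and 1 in MSC. Rad23b, a partner of Xpc, stood at 0.98 (SE 0.27, limma adjusted p 0.207), Uvssa, which acts where transcription is blocked, at -0.94 (SE 0.31, limma adjusted p 0.292), and the damage sensor Ddb1, named after its values were seen, at 0.80. Of 5 further mismatch repair genes 0 passed the unadjusted threshold. Of 10 end joining genes 1 did, Polq, the polymerase of an error-prone form of joining, at 2.88 (SE 1.05, limma adjusted p 0.343). Without MSC replicate 3, H2afx, Fen1 and Timeless passed the adjusted threshold (limma adjusted p 0.0376, 0.0395 and 0.0429), 3 of the 102 genes beside 0.591% of all genes tested. With the kind of library as a batch term 11 of the 102 passed it as higher in TAC, beside 5.22%, and in replicates 1 and 2 alone 32 as higher in TAC and 8 as higher in MSC, beside 20.0% and 24.2%. Polq was 1.56, Neil3 1.63, Topbp1 0.98, Timeless 1.203 and Wee1 0.85 without MSC replicate 3. The 6 lists had medians of 0.64, 0.63, 0.30, 0.22, 0.035 and 0.13, in the order in which they are given above for recombination, checkpoint, mismatch, base excision, nucleotide excision and end joining. They were 0.076, 0.53, 0.027, 0.36, 0.090 and 0.069 without MSC replicate 3. The median of the further mismatch genes turned to -0.18 without TAC replicate 1 and to -0.25 without TAC replicate 2. That of end joining turned to -0.000388 without MSC replicate 1, -0.072 without MSC replicate 2 and -0.027 without TAC replicate 3.

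Markers of cycling cells moved in the same direction. The median log2 fold change was 1.25 in a list of 22 S phase genes and 2.32 in a list of 22 G2/M genes. Over all genes tested it was 0.026. Past the unadjusted threshold were 15 and 19 of the listed genes, all higher in TAC, beside 5.42% of all genes tested. Within replicates 1 and 2 all 22 of each list were positive, and within replicate 3 it was 17 and 20. The summed value of the G2/M list was 175 to 372 in the MSC libraries and 619 to 1742 in the TAC libraries, and that of the S phase list was 241 to 262 and 554 to 729. The summed value of the 17 recombination and Fanconi genes was 31.04 to 109 in MSC and 174 to 271 in TAC. Cdk1, the kinase that drives mitosis, passed the adjusted threshold at 2.62 (SE 0.35, limma adjusted p 0.0390). But 0 of the 22 G2/M genes passed it with no variance trend, with replicates 1 and 2 averaged, or without replicate 1 or 2 of either group. With the replicate number as a block 4 passed it as higher in TAC, beside 0.604% of all genes tested. Without MSC replicate 3 it was 10 (0.591%), with the kind of library as a batch term 18 (5.22%), and in replicates 1 and 2 alone 22 (20.0%). Mki67 stood at 1.97 (SE 0.75, limma adjusted p 0.361, and 0.0442 with the replicate number as a block) and Pcna at 1.13 (SE 0.54, limma adjusted p 0.473). Pcna passed without MSC replicate 3, at 1.74 (limma adjusted p 0.0429). The part of cycling in the difference of the repair genes was not tested.

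Marker lists of other cell types were compared in the same way. Smooth muscle and pericyte genes had a median log2 fold change of -3.45, with summed values of 716 to 1402 in MSC and 71.1 to 101 in TAC. All 6 tested were lower in TAC at the unadjusted threshold, beside 6.43% of all genes tested. At the adjusted one 4 of these were (Acta2, Myh11, Tagln and Rgs5, contractile and pericyte genes), beside 0.383%. Without MSC replicate 1 or 2 or TAC replicate 1 or 2, 0 genes of all those tested passed the adjusted threshold, so these calls and that of Cdk1 were lost. At the unadjusted threshold 3 of 7 endothelial, 2 of 5 Schwann cell, 1 of 8 immune and 1 of 8 mesenchyme genes passed as lower in TAC, 1 of 7 epithelial genes as higher, and 0 of 7 odontoblast and 0 of 5 erythroid genes. Of all genes tested 6.43% passed as lower in TAC and 5.42% as higher, so a count of 0 or 1 does not set a list apart. Endothelial genes had a median of -0.87 (231 to 247 in MSC, 75.6 to 101 in TAC), Schwann cell genes -1.42 (22.3 to 46.2 and 6.37 to 19.3) and immune genes -0.35 (79.8 to 194 and 43.7 to 139). For odontoblast genes it was 0.86 (857 to 5360 and 4853 to 4976), but 0.055 without MSC replicate 3, for dental epithelium 0.97 (293 to 3350 and 2071 to 3052), for erythroid genes 0.11 (37.2 to 79.0 and 56.3 to 76.3), but -0.27 without MSC replicate 3, and for dental mesenchyme -0.27 (3391 to 12189 and 9389 to 13626). The medians of immune, Schwann cell and mesenchyme genes were -0.17, -0.85 and -0.44 without that library. The immune median was -0.84 without TAC replicate 3 and -0.062 without TAC replicate 1. The mesenchyme median was -0.0044 without TAC replicate 3, and the epithelium median was 1.56 without MSC replicate 1. Of the 8 mesenchyme markers none was at 0 in any library, and the odontoblast and epithelial sums were lowest in MSC replicate 3, where 2 of 7 odontoblast and 3 of 7 epithelial markers had 0 reads. Their part in the repair gene values was not tested.

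Which genes passed depended on single libraries. Exo1, Bard1, Rad51ap1 and Rad54b, 4 of the 9 genes, were past the unadjusted threshold whichever of the 6 libraries was left out. The share of all genes tested that met this rule was not computed. Brca1 and Fancd2 were lost without TAC replicate 1, 2 or 3, and Parp1 without TAC replicate 1 or 2 or MSC replicate 1 or 2. Brip1 was lost without MSC replicate 2 or 3 or TAC replicate 1 or 2, and Apex1 without MSC replicate 1 or 2 or TAC replicate 2 or 3. The count was 4 without TAC replicate 2 (2.64% of all genes tested) and 5 without TAC replicate 1 (2.61%). Without MSC replicate 3, 12 genes passed as higher in TAC (8.63% of all genes tested) and Trp53bp1 as higher in MSC (11.6%), and at the adjusted threshold 0 passed in either direction (0.591% and 1.31%). With the replicate number as a block 13 genes passed the unadjusted threshold, all higher in TAC (9.43%, with 10.9% higher in MSC), adding Blm, Brca2, Palb2 and Ung, and 0 the adjusted one (0.604% and 0.884%). Replicates 1 and 2 alone gave 21 of the 32 past the adjusted threshold as higher in TAC, beside 20.0% of all genes tested, and Trp53bp1 and Xpc as higher in MSC, beside 24.2%. At the unadjusted threshold 24 passed there in either direction, beside 23.4% of all genes tested as higher in TAC and 28.4% as higher in MSC. With the kind of library as a batch term 16 passed the unadjusted threshold as higher in TAC (14.2%, with 15.4% higher in MSC) and 10 the adjusted one (5.22% and 6.56%). With a mean of at least 10 it was 4 of 17 (7.07% of the genes then tested), namely Apex1, Bard1, Brca1 and Parp1. Exo1, Rad51ap1 and Rad54b were below that mean. With replicates 1 and 2 averaged it was 3 of 32 (1.83%), namely Bard1, Brca1 and Exo1, so Rad51ap1 and Rad54b were lost. The error of the fit on replicates 1 and 2 alone is the spread between libraries whose log2 values had a Pearson correlation across genes of 0.980 in MSC and 0.988 in TAC, and genes are not independent replicates.

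The use of strand in counting was not given in the sources used here, so reads of an overlapping neighbor may be counted in a gene. In GENCODE release M21, 22 of the 32 genes overlap at least 1 other gene. Among them, protein-coding neighbors on the other strand overlap Rad54l (Lrrc41), Xrcc3 (Klc1), Fanca (Zfp276), Fancd2 (Fancd2os), Fanci (Polg), Trp53bp1 (Tubgcp4), Msh6 (Fbxo11), Apex1 (Pip4p1), Ercc1 (Cd3eap) and Ercc2 (Klc3), and on the same strand Rad54b (Fsbp) and Pms2 (Rsph10b). Coordinates of genes are on mm10 and 1-based.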

How the data were processed

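RNA from laser-captured MSC and TAC regions was sequenced in 3 libraries each. Reads were trimmed and then mapped by the authors to mm10 with TopHat 2.0.8, and their methods name RPKM as the unit. The deposited signal does not have the steps that RPKM would give. The lowest value of a library is shared by genes of any length and low values are mostly multiples of it, so the deposited signal was treated as an estimated read number plus 1, divided by a factor per library. Estimated reads are the value over the lowest value, minus 1. Of values below 20 reads, 61.9% to 73.1% per library were whole within 0.01, so no count model was used and the planned fit on recovered reads was not run. The submitters' processing notes also name CASAVA 1.8.2 and Partek, the latter with no version and no stated role. Which tool counted the reads, and whether it used strand, is not given in the sources used here.

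The planned test assumed RPKM. Log2(value + 1) was fitted with limma 3.58.1 in R 4.3.3, with a variance trend, over the 15391 genes whose mean reached 1, TAC minus MSC, two-sided, with Benjamini-Hochberg adjustment over all genes tested. The pseudocount of 1 understates differences of low genes. The script was tested on simulated data in which no replicate stood apart. That test does not show how the fit behaves with a replicate such as replicate 3 here. The 32 members, the further lists and the rule for naming genes were chosen with earlier results of these data known. The rule takes all members, further repair and cycling genes past the adjusted threshold, the 2 largest per further repair list past the unadjusted one, and Gli1, Axin2, Mki67 and Pcna.

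Same-numbered MSC and TAC samples deviated from their group means together (correlations across genes of 0.477, 0.465 and 0.517), but so did MSC replicate 1 with TAC replicate 2 (0.462) and MSC replicate 2 with TAC replicate 1 (0.480). The numbers come from the labels, and the methods do not say what a pair shares. Replicates 1 and 2 of a group differed by more than counting noise (chi-square per degree of freedom of 10.3 in MSC and 8.33 in TAC), so they are not 1 library deposited again. This does not show that they come from separate animals, for which the methods are the source. A value at 0 reads allows up to 3 reads, for counting error only. The coordinates of 29 of the 32 members equal those of GENCODE release M21 once the deposited end is lowered by 1.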

Additional observations from a re-analysis of the deposited data

How the results depend on the processing

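At the adjusted threshold 65 of all genes tested passed. The count was 38 with a pseudocount of 0.1, 114 with quantile normalization, 29 with no variance trend, 229 with the replicate block, 1814 with the kind of library as a batch term, 6796 in replicates 1 and 2 only, 10 with replicates 1 and 2 averaged, and 0 to 292 when 1 library was left out, 0 without MSC replicate 1 or 2 or TAC replicate 1 or 2. Of the repair genes 0 passed, but 10 did with the batch term and 23 in replicates 1 and 2 only. The 9 at the unadjusted threshold (5.42% of all genes tested as higher in TAC) became 4 with a mean of at least 10 (17 of the 32 genes left, 7.07%). The count was 16 with the batch term (14.2%), 24 in replicates 1 and 2 only (23.4%, with 28.4% higher in MSC) and 3 with replicates 1 and 2 averaged (1.83%). With 1 library left out it was 4 to 13. The replicate block changed no call of a repair gene at the adjusted threshold.

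With 1 library left out, the median of the 32 genes was 0.59 to 1.16, that of recombination 1.00 to 1.94 and that of mismatch repair 0.19 to 0.70. With a pseudocount of 5 the median was 0.60 for the 32 genes, 0.93 for recombination and 0.75 for base excision. With a pseudocount of 0.1 these were 1.30, 2.03 and 1.39. The base excision median was 0.71 to 1.35 with 1 library left out. The checkpoint median turned to 0.29 in replicates 1 and 2 only and ran from -0.44 to 0.23 with 1 library left out, and the nucleotide excision median to -0.20 and from -0.22 to 0.20. In replicates 1 and 2 only, the log2 fold change turned to -0.043 for Xrcc3, 0.23 for Atm, 0.36 for Atr, -0.48 for Xpc, 0.018 for Ercc1 and -0.20 for Ercc2. Chek2 turned to -0.018 with a pseudocount of 5 and to -0.17 with replicates 1 and 2 averaged. With 1 library left out, the ranges that crossed 0 were -0.42 to 1.94 for Rbbp8, -1.28 to 0.42 for Atm, -1.04 to 0.18 for Atr, -0.15 to 1.62 for Chek1, -0.38 to 0.56 for Chek2, -0.45 to 0.52 for Mdc1, -0.032 to 0.74 for Pms2, -0.70 to 1.022 for Xpc, -0.31 to 0.21 for Ercc1 and -0.22 to 0.20 for Ercc2. The cause was not tested.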
